A study of Mus musculus with 2 samples.

Results

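The genes described here are 55 transcripts of mitosis and cytokinesis, the steps in which a cell that has copied its DNA condenses its chromosomes, attaches them to a spindle, separates them and divides. They were taken from a list of names: every probe set (a group of short oligonucleotides for 1 transcript) that the platform annotation assigns to exactly 1 gene, that gene being on the list, was used. The rule found 124 probe sets for 54 of the 55 genes, of 34945 probe sets for 18193 genes in all. Ccnb1, which encodes cyclin B1, was matched by no probe set under this rule, so its expression was not analysed here and it enters the promoter counts alone.

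The genes were compared between regulatory T cells (Tregs), CD4+ T cells that express Foxp3 and hold back immune responses, of mice with different genotypes. The DNR group carries a dominant negative TGF-beta receptor II on the C57BL/6 background, and the WT group is wild type on that background. The animals were 10 weeks old and the cells were flow-sorted from the spleen of naive mice as CD4+ and Foxp3+. One treatment text, attached to both samples, names DNR mice as the source, whereas the genotype, source and title of the control sample all say WT. There was 1 array per genotype. The sources used here give neither the number of mice behind each RNA nor the promoter that drives the DNR receptor. A single array per group gives no replicate error, so no difference below has a test, and each one is between these RNA samples rather than between the genotypes.

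Progress through mitosis is run by cyclin-dependent kinase 1 with its cyclins A and B, together with the Aurora and Polo-like kinases. Transcripts of this machinery are periodic: in dividing cells they accumulate late in the cycle, in part through a repressor and activator complex that reads the cell cycle homology region of their promoters, and in resting lymphocytes they are low. A share of Tregs divides at any time, and Ki-67, encoded by Mki67, is the usual marker of those cells. In RNA of a whole population, a larger share of dividing cells and more transcript in each dividing cell cannot be told apart.

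The values are MAS5 signals, which are brightnesses on a linear scale. A signal below 110.9, the higher of the medians of the arrays over all probe sets, was set to that floor before ratios were taken, and a gene counts as measured if either array or both exceeded the floor. Where a gene has several probe sets, the brightest by mean signal stands for it. Log2 ratios are of DNR over WT signal, so a value of 1 is a 2-fold higher signal in DNR Tregs. Against a value at the floor the ratio can only be bounded, which the words "at least" mark. An error could be estimated only from how far probe sets of 1 gene disagree. Over 3968 genes it corresponded to a robust SD of 0.36 for the log2 ratio of a probe set, and of 0.51 for the difference between the ratios of 2 probe sets. Variation between animals, cell sorts and hybridisations is not part of it.

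The 4 promoters below belong to the members with the largest ratios on both arrays for which RefSeq (build GRCm38.p6) promoters were at hand. They are shown because the members share sequence features that the choice of genes did not use. Each is the 150 bases before the annotated start, written 5′ to 3′ on the strand of the gene, with capitals for CCAAT and TTTGAA on either strand. CCAAT is the box bound by NF-Y, and TTTGAA is the usual form of the cell cycle homology region. The stretches are chr3:27153879-27154028 on the minus strand for Ect2, chr12:116405286-116405435 on the plus strand for Ncapg2, chr11:117849087-117849236 on the plus strand for Birc5 and chr4:118437344-118437493 on the minus strand for Cdc20. Ect2 has 2 start sites in the table and the one listed first is shown.
Ect2: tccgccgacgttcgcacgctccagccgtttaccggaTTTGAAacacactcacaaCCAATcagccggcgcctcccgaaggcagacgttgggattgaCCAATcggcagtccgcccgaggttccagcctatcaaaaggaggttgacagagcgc
Ncapg2: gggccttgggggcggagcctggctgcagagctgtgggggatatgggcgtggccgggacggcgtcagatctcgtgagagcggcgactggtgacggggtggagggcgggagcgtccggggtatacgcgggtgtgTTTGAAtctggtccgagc
Birc5: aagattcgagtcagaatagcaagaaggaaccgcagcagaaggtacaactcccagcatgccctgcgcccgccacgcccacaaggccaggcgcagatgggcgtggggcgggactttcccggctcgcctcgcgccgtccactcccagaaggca
Cdc20: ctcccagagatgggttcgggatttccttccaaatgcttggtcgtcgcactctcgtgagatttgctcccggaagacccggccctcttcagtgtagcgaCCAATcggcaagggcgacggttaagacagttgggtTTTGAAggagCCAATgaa

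The Cdc20 promoter holds TTTGAA at position -18 between CCAAT at -53 and CCAAT at -8, counting back from -1 at the base before the start. Ncapg2 holds TTTGAA at -18 and no CCAAT, and the Birc5 window holds neither. Promoters of 45 of the 55 genes were in the table, each as a window of 250 bases before and 50 bases after the start, with 47 windows in all. Of the 45 genes, 30 (66.7%) had TTTGAA in a window on either strand, against 20.2% of the 27025 genes in the table and 18.5% of its protein-coding genes. CCAAT was found in 32 of the 45 (71.1%), against 41.1% of all genes. Both motifs were present in 26 (57.8%), against 7.97%. The variant TTCGAA was found in 4 members (8.89%), against 1.8%. The 80 CCAAT matches lay mostly before the start, 50 of them within 100 bases of it. Of the 42 TTTGAA matches 14 lay within 100 bases before the start and 19 after it. A match of letters does not show that a factor binds there, and the absence of a match says only that these letters are not in the window.

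Transcripts of mitosis and cytokinesis had higher signals in DNR Tregs. Of the 55 genes 53 were measured, 51 on both arrays and 2, Anln and Cdc25c, on the DNR array alone. Of the 53, 49 were higher in DNR Tregs by any amount (51.4% of all 11927 measured genes were) and 27 were at least 2-fold higher, against 4% of all measured genes. None was lower by as much, against 2.93%. Above the floor on both arrays, 47 of 51 members were higher and 27 were at least 2-fold higher. For all genes these counts were 4320 of 9281 and 283. The median log2 ratio of the members was 1.02, a 2.02-fold higher signal, and that of all measured genes was 0.014. At 3-fold 6 members were higher: Aurkb, Ect2, Ncapg2, Birc5, Cdc20 and Kif11. Across all measured genes 56 reached 3-fold (0.47%). Members made up 27 of the 477 genes that were at least 2-fold higher (5.66%). The shares of 51.4% and 4% of all measured genes are also the ones to set beside the counts of each group below.

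**Figure D1:**
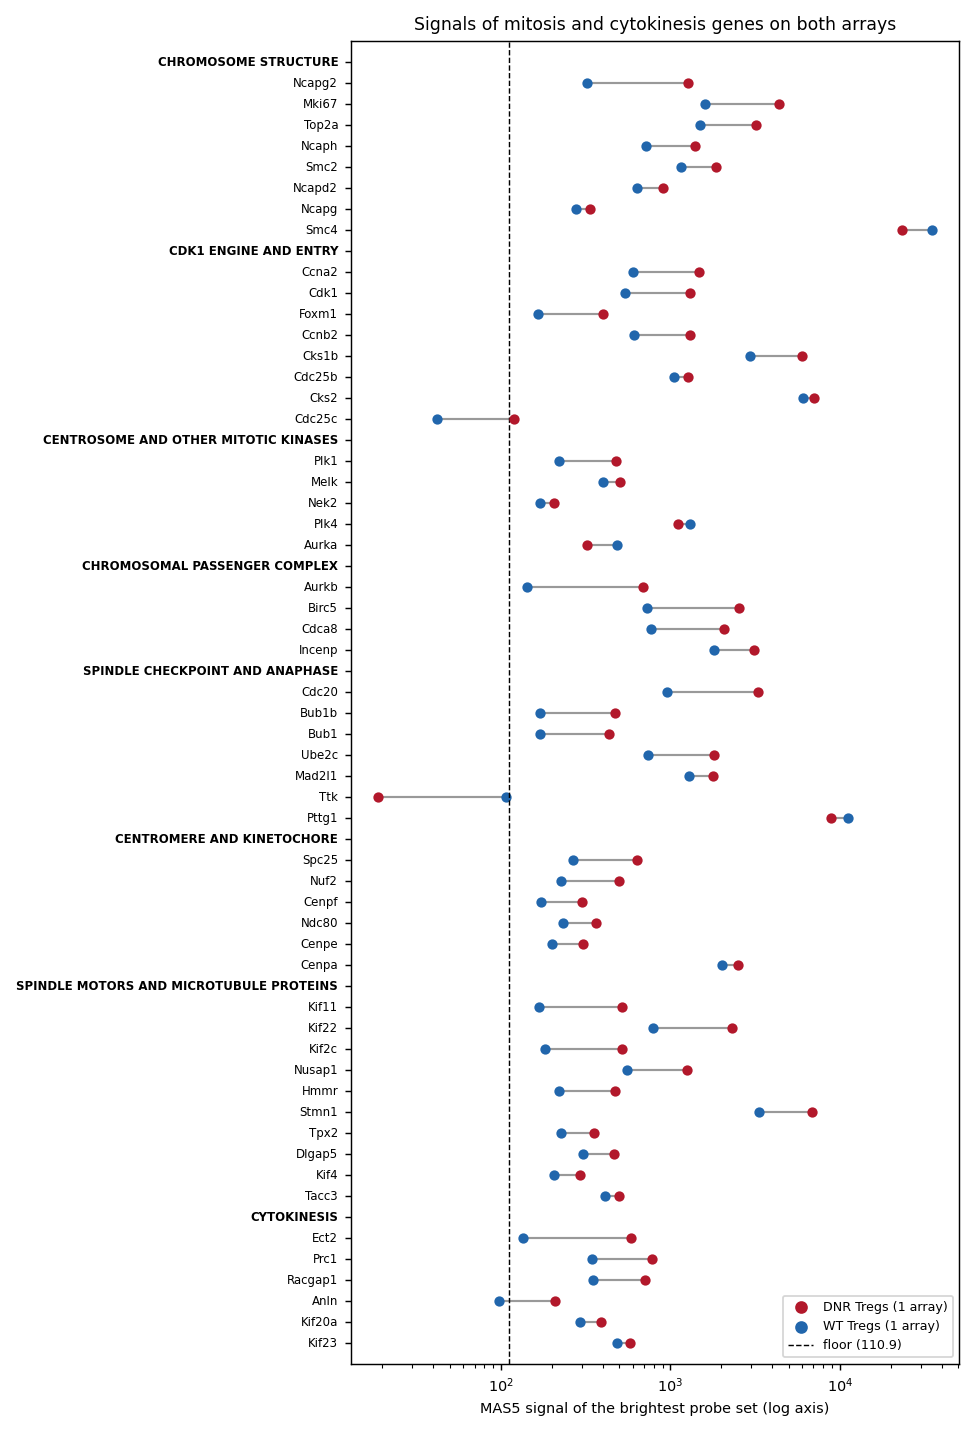
MAS5 signal (log axis) of the brightest probe set of each of the 54 genes with a probe set, on the DNR array (red) and the WT array (blue), 1 array each, grouped by role. The dashed line is the floor of 110.9. Red lies to the right of blue except for Smc4, Plk4, Aurka, Pttg1 and Ttk, and both points of Ttk lie below the floor.

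These counts depended on the scaling and on the kind of probe set. With the arrays set to equal medians of the poly-A spike-ins, which divided the DNR signals by 1.43, the median of all measured genes was -0.48 and that of the members 0.50, so 7 of 54 members were at least 2-fold higher (0.987% of all genes) and 36 were higher by any amount. With division by 1.30, the median of the ratios of the same spike-ins, an alternative added after the data were seen, 11 of 54 were at least 2-fold higher (1.77% of all genes). The gap between members and all genes was 0.98 with division by 1.43 and 1.0 in the setting of the text. Shared probe sets are those whose suffix s, x or a marks probes that match more than 1 transcript, which can be transcripts of 1 gene. With them left out, 41 members were measured, 14 of them were at least 2-fold higher (3.84% of all genes), and the median was 0.69.

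The chromosomal passenger complex had the highest median among the groups, on shared probe sets. It is the kinase complex that sits on centromeres, releases wrong spindle attachments and later marks the site of division. All 4 subunits were higher in DNR Tregs and 3 reached 2-fold, with a median of 1.62. Aurkb, its kinase, read 693 in DNR Tregs against 142 in WT Tregs. This is a 4.88-fold difference (log2 2.29), which ranked 4 among the 11927 measured genes. Its other probe set had 366 against 92.1, the WT value being below the floor, so its log2 ratio was at least 1.72. Birc5, or survivin, which holds the complex on the centromere, had 2550 against 728 on its only probe set, a log2 ratio of 1.81. Both genes have only shared probe sets. Cdca8, or borealin, which joins survivin to the scaffold, had 2069 against 764, and its 3 probe sets had log2 ratios of 1.44, 1.31 and at least 1.25. Incenp, the scaffold itself, is the subunit with the smallest and least certain difference. Its brightest probe set had 3130 against 1803 (0.80), but others had 563 against 502 (0.17) and 150 against 151 (-0.012). The brightest probe set of each of the 4 subunits is a shared one, so the median of the group rests on these. With shared probe sets left out, Aurkb and Birc5 had no value, Cdca8 was at least 1.25 and Incenp was 0.17.

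Genes of the spindle checkpoint and of anaphase were mostly higher. The checkpoint delays chromosome separation until every kinetochore is attached, by holding back Cdc20, the activator of the anaphase-promoting complex. Of 6 measured genes 5 were higher, 4 by at least 2-fold, and the median was 1.33. Cdc20 had 3309 in DNR and 950 in WT Tregs (log2 1.80) on a shared probe set, and 804 against 469 (0.78) on another. Ube2c, the ubiquitin-conjugating enzyme of that complex, had 1819 against 737 (1.30). The checkpoint kinase gene Bub1 had 437 against 170 (1.36). Bub1b, which encodes the Cdc20 inhibitor BubR1, had 470 against 171 (1.46), and a second probe set had 365 against 217 (0.75). Mad2l1, whose product Mad2 binds Cdc20, showed a smaller difference, at 1796 against 1293 (0.47).

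Pttg1, or securin, the inhibitor of the protease separase, gave conflicting values. Its brightest probe set was lower in DNR Tregs, at 8860 against 11162 (-0.33), and its others were higher, at 2437 against 1884 (0.37) and 907 against 622 (0.54). Ttk, the kinase Mps1 that starts checkpoint signalling, was below the floor on both arrays by both of its probe sets, so no ratio is given. Its signals were lower in DNR Tregs on both, at 18.9 against 107 and 10.1 against 93.8, and the first WT signal was just under the floor.

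Among the genes that drive entry into mitosis, the cyclins and their kinase were higher by similar factors. All 8 measured genes of this group were higher and 5 reached 2-fold, with a median of 1.06. Cdk1 had 1311 in DNR and 541 in WT Tregs (log2 1.28). Ccna2, which encodes cyclin A2, had 1471 against 602 (1.29), and its second probe set had 1184 against 474 (1.32). Ccnb2, cyclin B2, had 1316 against 611 (1.11). The ratios of these 3 genes span 0.18, less than the SD of 0.51 for the difference between 2 probe sets of 1 gene. Foxm1, the transcription factor of late cell cycle genes, had 399 against 165 (1.27) on the 1 of its 4 probe sets above the floor.

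The small subunits Cks1b and Cks2, close relatives that bind Cdk1 and tune its choice of substrates, differed from each other. Cks1b had 5965 against 2947 (log2 1.02) and, on a second probe set, 1015 against 563 (0.85). Cks2 had 7059 against 6104 (0.21) and 5961 against 4828 (0.30). The lower of the Cks1b ratios and the higher of the Cks2 ratios are 0.55 apart, near the 0.51 between probe sets of 1 gene. Cdc25b, a phosphatase that switches Cdk1 on, had 1277 against 1055 (0.28). Its relative Cdc25c had 119 against 41.7, a WT signal under the floor, so it was at least 1.07-fold higher and the size of its difference is unknown.

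The other mitotic kinases were the group with the smallest median, 0.27, and the only group besides the checkpoint genes and the chromosome structure genes with a lower member. Of 5 genes 3 were higher and 1 reached 2-fold. This was Plk1, the Polo-like kinase of spindle and cytokinesis, with 476 in DNR and 222 in WT Tregs (log2 1.10). Melk had 502 against 401 (0.32), and Nek2, a kinase that parts the centrosomes, 205 against 170 (0.27). The centrosome kinase Aurka was lower, with 321 against 483 (-0.59), and its other probe set was just above the floor in DNR Tregs alone (120 against 12.7). Plk4, which triggers the duplication of centrioles, had 1103 against 1307 (-0.24) and 370 against 426 (-0.20), while its remaining probe set had 329 against 308 (0.097). Aurkb and Aurka thus lay 2.88 apart on the log2 scale, although they encode related kinases.

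Genes of the centromere and kinetochore, where spindle fibres attach, were all higher, with a median of 0.73. At least 2-fold higher were 2 of the 6. These encode subunits of the Ndc80 complex, the rod that grips the microtubule: Spc25 had 635 in DNR and 268 in WT Tregs (log2 1.24) and Nuf2 496 against 227 (1.13). Ndc80 itself had 363 against 234 (0.64), and Spc24, which completes the complex and is not on the list of 55, had 243 against 162 (0.59). The 4 ratios span 0.66. This is a range of 4 values and so not the same measure as the SD of 0.51 for the difference between 2 probe sets. It does not show that these genes differ from each other. Cenpf, a large kinetochore protein, had 302 against 172 (0.81). Cenpe, a kinesin that moves chromosomes to the spindle equator, had 307 against 200 (0.62). Cenpa, the histone variant that marks centromeres, had 2526 against 2025 (0.32) and 695 against 658 (0.078).

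All 10 genes of spindle motors and microtubule proteins were higher and 6 reached 2-fold, with a median of 1.08. Kif11, the motor that pushes spindle poles apart, had 518 in DNR and 168 in WT Tregs (log2 1.62). Its other probe sets had 397 against 104, at least 1.84, and 207 against 124 (0.73). Kif22, a motor that binds chromosome arms, had 2312 against 792 (1.55), and its others were at 1.36 and 1.25. Kif4, a chromosome-bound motor of the spindle midzone, had 291 against 205 (0.51).

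Kif2c, a kinesin that takes microtubule ends apart, was high by 1 probe set only. That shared probe set had 519 against 182 (log2 1.51), whereas 2 of its others were above the floor in WT Tregs alone, with log2 ratios of at most -0.26 and -0.088. Among the non-motor proteins, Nusap1, which bundles spindle fibres, had 1251 against 558 (1.16). Hmmr, a spindle pole protein, had 470 against 219 (1.10). Stmn1, or stathmin, which sequesters tubulin, had 6898 against 3335 (1.05), and a second probe set had 525 against 271 (0.95). Tpx2, the activator of Aurora A, had 354 against 226 (0.64). Dlgap5, which stabilises the fibres at kinetochores, had 463 against 305 (0.60). Tacc3, a protein of the centrosome and spindle, had 495 against 410 (0.27) on its brightest probe set and at least 1.12 and 0.99 on the others.

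Cytokinesis genes were all higher, and the largest ratio was that of Ect2. This exchange factor activates RhoA to build the contractile ring. It read 583 in DNR Tregs against 135 in WT Tregs, or 4.32-fold (log2 2.11), on a single, shared probe set. Its partners on the central spindle, the subunits of centralspindlin, differed less: Racgap1 had 708 against 349 (1.02) and, on a second probe set, 590 against 283 (1.06), and the motor Kif23 had 582 against 486 (0.26). Prc1, which bundles the microtubules of the midzone, had 779 against 345 (1.18) and 420 against 211 (0.99). Kif20a, a motor that brings the passenger complex to the midzone, had 390 against 293 (0.41). Anln, or anillin, the scaffold of the ring, had 209 in DNR Tregs and 97.0, below the floor, in WT Tregs, at least 1.89-fold higher.

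Genes of chromosome structure ranged more widely than any other group. Of 8 genes 7 were higher, 3 by at least 2-fold, and the median was 0.83. Mki67 had 4392 in DNR and 1605 in WT Tregs (log2 1.45). Top2a, the topoisomerase that untangles sister chromatids, had 3192 against 1489 (1.10), but its second probe set above the floor went the other way, at 145 against 233 (-0.68).

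The subunits of condensin, the ring that compacts chromosomes, did not move as a unit. Ncapg2, found in condensin II, had 1267 against 323, a 3.93-fold difference (log2 1.97). The other condensin II subunits, which are not on the list of 55, were near equal for Ncapd3 (1459 against 1481) and at 0.56 for Ncaph2. In condensin I, Ncaph had 1405 against 717 (0.97), with another probe set at 0.53. Ncapd2 had 911 against 638 (0.51). Ncapg had 334 against 277 (0.27), with another probe set at least 1.03. Of the core subunits shared by both complexes, Smc2 had 1858 against 1153 (0.69) and its other 3 measured probe sets were higher too. Smc4 was lower by each of its 3 probe sets, at 23338 against 34943 (-0.58), 9271 against 10361 (-0.16) and 6100 against 9069 (-0.57).

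**Figure D2:**
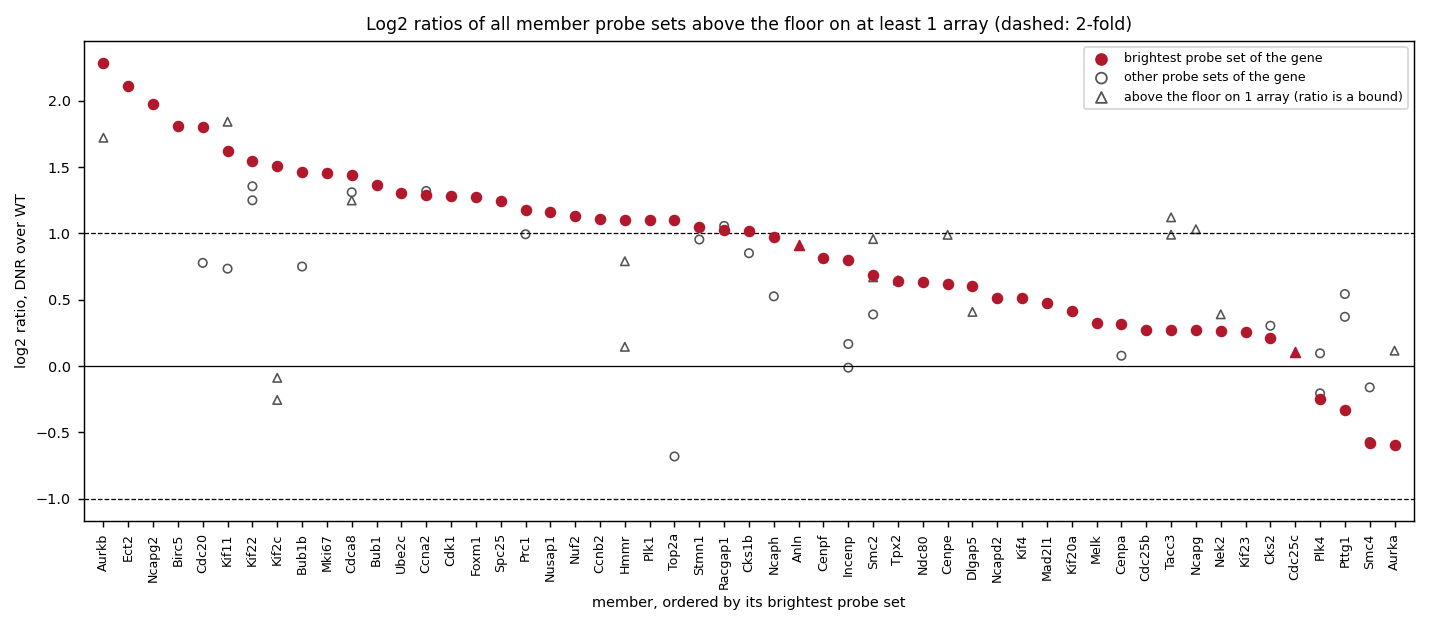
Log2 ratio (DNR over WT) of every member probe set above the floor on at least 1 array, for the 53 measured genes ordered by their brightest probe set (filled). Open symbols are other probe sets of the gene, triangles are bounds, and dashed lines mark 2-fold. Of 94 probe sets 83 lie above 0, and open symbols lie on the other side of 0 from the filled ones for Top2a, Kif2c, Incenp, Plk4, Pttg1 and Aurka.

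Counted by probe set, 94 of the 124 were above the floor on at least 1 array, 75 of them on both. Of the 94, 83 were higher in DNR Tregs (51.5% of all 20764 such probe sets), 37 were at least 2-fold higher (3.93%) and none was lower by as much. Among the 53 measured genes 29 had a further probe set above the floor, and in 23 of these every further one went the same way. The share over all genes was not computed. For Aurkb, Cenpe, Nek2, Ncapg, Tacc3, Tpx2, Dlgap5 and Hmmr each further one was above the floor in DNR Tregs alone. Such probe sets can only be higher, so their direction adds nothing to the 23. Of the 14 genes at least 2-fold higher with a further probe set, 5 reached 2-fold by all of them: Aurkb, Cdca8, Ccna2, Kif22 and Racgap1. In all, 6 members lay within 0.1 of the 2-fold threshold on the log2 scale, 4 above and 2 below it, so membership of the 2-fold set is not exact. Kif2c and Top2a are the members at least 2-fold higher whose direction depended on the probe set.

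Other genes of the pathway were set beside the members, from lists that overlap none of them. Of all measured genes 51.4% were higher in DNR Tregs, 4% were at least 2-fold higher and 2.93% were lower by as much. Of 42 measured periodic mitotic genes outside the list, 34 were higher, 11 (26.2%) reached 2-fold and none was lower by as much, with a median of 0.57. The largest ratios were those of Shcbp1, a protein of the midbody, at 631 against 172 (1.87), Spag5, the spindle protein astrin, at 371 against a WT signal below the floor (at least 1.74), Pbk, a mitotic kinase, at 727 against 256 (1.51), and Cenpn, a centromere protein, at 396 against 148 (1.42). Of 42 measured DNA replication genes 33 were higher, 7 (16.7%) reached 2-fold and none was lower by as much, with a median of 0.47. The thymidine kinase gene Tk1 had 735 against 255 (1.53), the ribonucleotide reductase gene Rrm2 6075 against 2122 (1.52), the flap endonuclease gene Fen1 2912 against 1274 (1.19) and the polymerase gene Pola1 978 against 450 (1.12). Above the floor on the DNR array alone, so that they could only be higher, were 6 of the periodic mitotic genes and 1 replication gene. Above it on both arrays, 28 of 35 periodic mitotic genes were higher and 8 reached 2-fold. For DNA replication genes these counts were 32 of 40 and 6, and for all genes 4320 of 9281 and 283.

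Machinery that mitosis needs but that is made throughout the cycle, such as the anaphase-promoting complex, cohesin and the Cdk-activating kinase, had a median of -0.027. Of its 33 measured genes 14 were higher and 19 lower, and 1 (3.03%), Ckap5, was at least 2-fold higher (1005 against 486). That share is near the 4% of all measured genes. Anapc10, a subunit of the anaphase-promoting complex, was at 0.56, Smc3 of cohesin at 0.47 and the spindle pole protein Numa1 at -0.49. Brakes on mitotic entry were higher by less than 2-fold in 5 of 5 genes (median 0.24). Pkmyt1, which holds Cdk1 inactive, had 632 against 330 (0.94), the checkpoint kinases Chek2 and Chek1 were at 0.36 and 0.24, and Fzr1, an activator of the anaphase-promoting complex, at 0.21.

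**Figure D3:**
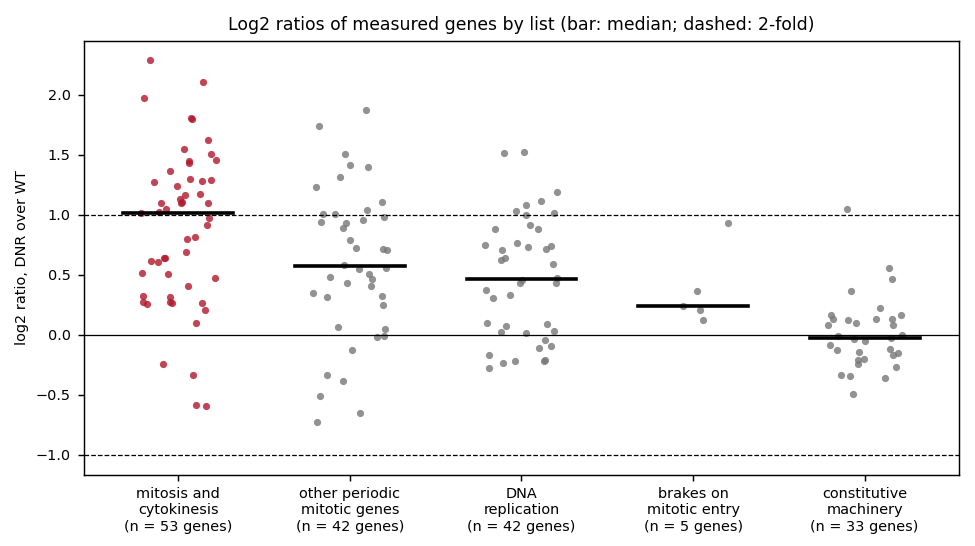
Log2 ratio (DNR over WT) of each measured gene in 5 lists, 1 point per gene, with the median as a bar and 2-fold as dashed lines; sideways spread only separates the points. The medians are 1.02 for the members, 0.57 for other periodic mitotic genes, 0.47 for DNA replication, 0.24 for brakes and -0.027 for constitutive machinery.

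Markers of cells and signs of RNA quality were read beside these results, and their part in them was not tested. The 8 Treg markers were above the floor on both arrays, and their signals summed to 120924 on the DNR array against 97392 on the WT array. Of the 8, 5 were higher and 3 lower in DNR Tregs, and none differed by 2-fold. Foxp3 had 4550 against 3754, Ctla4 52119 against 41217 and Ikzf2 23891 against 16696. The lower ones were Cd4 (415 against 595), Il2ra (3969 against 4591) and Cd3e (4388 against 4668). Of 7 markers of erythroid precursors with a probe set, Hba-a1, Alas2, Slc4a1 and Ermap were below the floor on both arrays. The 7 summed to 3572 against 4576, most of it from the transferrin receptor gene Tfrc (3361 against 4257), which activated T cells also express. The measured others were Epor (41.6 against 143) and Klf1 (116 against 7.92). Of 6 B cell markers Cd79a and Pax5 were below the floor on both arrays, and the sum was 1538 against 1155, with Cd79b at 869 against 666 and Cd22 at 444 against 162. Ms4a1 (76.4 against 126) and Blk (86.1 against 150) were above the floor in WT Tregs alone. Of 9 markers of germinal centre B cells and plasma cells Mybl1 and Tnfrsf17 were below the floor, with a sum of 14347 against 13914 that came mainly from Xbp1 (8270 against 9333) and Irf4 (3155 against 2469), genes that T cells also use. Prdm1, a gene of plasma cells and effector T cells, was the 1 marker of this list at least 2-fold higher (690 against 277), and Sdc1 was above the floor in DNR Tregs alone (142 against 50). CD8 T and NK cell markers summed to 1185 against 1073 over 6 genes, with Klra8 below the floor and Eomes at 360 against 416 and Klrd1 at 284 against 183. Cd8a had 198 against 148 and Cd8b1 171 against 294, and Ncr1 was above the floor in DNR Tregs alone (168 against 9.61). Neutrophil markers summed to 1408 against 686 over 8 genes, with S100a9, Camp, Ltf and Mpo below the floor on both arrays. Of the 4 measured ones 3 were at least 2-fold higher in DNR Tregs: Mmp9 (537 against 184), S100a8 (285 against 47.1) and Ngp (287 against 37.7). Elane had 173 against 238. Macrophage and monocyte markers were lower in 8 of 8 measured genes, summing to 4017 against 5879 over 10, with Cd14 and Fcgr1 below the floor. Of the 8, 3 were at least 2-fold lower: C1qa (330 against 788), C1qc (185 against 386) and Vcam1 (478 against 974). Csf1r had 1449 against 1799. Of 6 dendritic cell markers Xcr1, Zbtb46, Flt3 and Cd209a were below the floor on both arrays, and the sum was 406 against 319. Siglech (157 against 82.9) and Itgax (120 against 9.29) were above it in DNR Tregs alone.

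The hybridisation spike-ins were brighter on the DNR array in 18 of 18 probe sets, by 1.95-fold at the median, and the poly-A spike-ins in 20 of 24, by 1.30-fold at the median. The ratio of the 3′ to the 5′ signal, which grows as RNA is shortened, was 6.31 on the DNR and 4.98 on the WT array for actin and 2.28 against 2.07 for Gapdh.

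**Figure D4:**
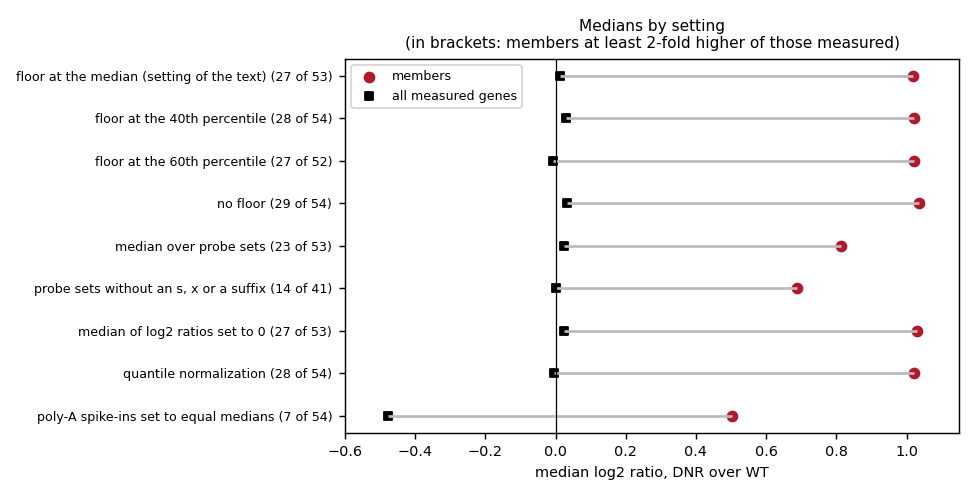
Median log2 ratio (DNR over WT) of the measured members (red circles) and of all measured genes (black squares) in the setting of the text and 8 alternatives, with the number of members at least 2-fold higher in brackets. The members lie to the right of all genes in each setting, by 0.69 without shared probe sets and by 0.79 to 1.03 in the others.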

How the data were processed

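The authors deposited 1 signal intensity per probe set and array, made with MAS5 per the submitters' processing notes, from biotin-labelled cRNA per the labels' protocols. Trimmed by 2% at each end, the values of either array averaged 500.0. Of 45101 probe sets, 64 controls were set aside. The platform annotation gave exactly 1 gene to 34945 of the remaining 45037, and 932 annotated probe sets with several genes were not used. No genome build is named, so array features carry no coordinates. Ratios were computed in Python 3.11.15 with numpy 2.4.6 and pandas 2.3.3, with the floor, the brightest probe set per gene and the 2-fold threshold. The procedure was tested on simulated data, with changes placed only in genes whose WT signal was far above the floor. Changes in genes with a WT signal near the floor, such as Aurkb and Ect2, were not covered. With 1 array per genotype no test, p-value or SD between samples exists, and the number of arrays limits the precision.

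Every member is named. Of each other list the 4 genes with the largest ratios are named. Of each marker list the 2 brightest are named, and Foxp3. Markers below the floor, and those that stood out or went the other way once their values were seen, were added. Spc24, Ncapd3 and Ncaph2 were added after their values were seen because they complete complexes. Members, lists, floor and threshold were chosen with earlier results of these data known. Alternatives were other floors, probe set rules, scalings and thresholds.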

Additional observations from a re-analysis of the deposited data

How the results depend on the processing

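The 27 members at least 2-fold higher, beside 4% of all measured genes (the share of all genes follows in brackets), numbered 28 with the floor at the 40th percentile (8.6%), 27 at the 60th (2.59%) and 29 with no floor (19.9%). They numbered 27 and 28 with the other scalings (4.04% and 3.93%) and 23 with the median over probe sets (3.1%). They numbered 14 without shared probe sets (3.84%) and 7 with equal medians of the poly-A spike-ins (0.987%). With the median ratio of these spike-ins set to 1, added after the data were seen, they numbered 11 (1.77%). At a 3-fold threshold they numbered 6 (0.47%), and at 1.5-fold 36, for which the share of all genes was not computed. Members lower by the threshold numbered 1 with no floor (Ttk, beside 14.6% of all genes) and 2 with equal poly-A medians (Aurka and Smc4, beside 12.4%), against 0. At 1.5-fold they numbered 1 (Aurka), again without a computed share of all genes. The median was 0.50 with equal poly-A medians, where that of all genes was -0.48, and 0.65 with the poly-A median ratio set to 1, where it was -0.34. Of the 27, 17 stayed at least 2-fold higher in 7 or more of the 8 alternative floors, probe set rules and scalings in the plot of medians by setting, and 3 (Kif11, Kif22 and Ncapg2) in 8. Aurkb, Birc5 and Ect2 had no value in the alternative without shared probe sets. Called values that changed sign were Kif2c, at -0.088 with the median over probe sets and -0.26 without shared probe sets, and Top2a, at -0.68 without shared probe sets. No paired analysis was possible because each genotype has 1 array. Depth does not apply to arrays, and signals near the floor, as for Anln, Cdc25c, Nek2 and the WT value of Aurkb and Ect2, bound what can be measured.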

Other observations

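The promoter motifs were also counted by how far the members differed between the arrays, a split made after the values were seen and given with no test. Of the 23 members at least 2-fold higher that had a promoter in the table, 19 (82.6%) held TTTGAA and 17 (73.9%) held both TTTGAA and CCAAT. Of the other 20 measured members with a promoter, 10 (50%) held TTTGAA and 8 (40%) held both. Periodic mitotic genes outside the list held TTTGAA in 26 of 39 cases (66.7%), constitutive machinery in 7 of 26 (26.9%) and DNA replication genes in 6 of 37 (16.2%), close to the 20.2% of all genes. CCAAT was found in 22 of 37 DNA replication genes (59.5%) and in 11 of 26 genes of the constitutive machinery (42.3%), against 41.1% of all genes.

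Of the 100 genes with the largest ratios among those above the floor on both arrays, 13 were members, which make up 51 of all 9281 such genes (0.55%).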
